A study of Mus musculus with 18 samples.

Results

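Of 45706 genes with a count entry for each mouse kidney, 10 were taken as genes of renal endothelial cells, the cells that line the blood vessels of the kidney. They were chosen by gene name and not by a rule on their values, though earlier results of these data were known. They are *Pecam1* and *Cdh5* at the cell contacts, *Kdr*, *Flt1*, *Tek* and *Tie1* as receptors, *Emcn*, *Ehd3* and *Plvap* as surface and membrane proteins of particular vessels, and *Sox17* as a transcription factor. RNA was measured in whole kidneys of 18 male C57BL/6 mice, all removed 12 h after 22.5 min of bilateral ischemia. There were 5 KO and 3 control mice in the *Cxcl12* cohort and 5 of each in the *Myc* cohort. KO mice carried floxed *Cxcl12* or *Myc* alleles with Pax8rtTA and TetOCre, so that doxycycline switched on the Cre recombinase in tubule cells. Control mice carried the same floxed alleles with Pax8rtTA but no TetOCre, and they were given doxycycline too. No uninjured kidney was analysed here. Because the recombinase is driven in the tubule, the 10 genes were taken as genes of cells outside the deleted compartment. Counts of whole kidneys do not show which cells the reads came from. The whole kidney holds their RNA beside that of the far more numerous tubule cells. In such bulk samples, fewer endothelial cells and less RNA per endothelial cell cannot be told apart.

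Endothelial cells of the kidney differ by vessel. Those of the glomerulus are pierced by open pores through which plasma is filtered, those of the peritubular capillaries have pores closed by a diaphragm, and arteries, veins and vasa recta have linings of their own. All depend on VEGF, which podocytes and tubule cells make and which acts through VEGFR2 (*Kdr*), while VEGFR1 (*Flt1*) binds VEGF tightly with weak signalling and its soluble form traps the ligand. The angiopoietins act through TIE2 (*Tek*), with TIE1 as its partner, and keep vessels quiet and tight. After ischemia, peritubular capillaries are known to leak, swell and draw in leukocytes, and the loss of such capillaries is a known part of poor recovery.

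Each kidney had from 12918220 to 29749500 reads on genes, and each of the 10 genes had between 130 and 8768 reads in a kidney. Values are given in CPM, a gene's reads scaled to a common library size by the TMM method over the 18 kidneys, and listed from replicate 1 upwards. In 6 kidneys, under 5% of reads were unmapped (*Cxcl12* KO 1 and 2, *Myc* KO 3 and 5, *Myc* control 1 and 3). *Cxcl12* had 26.3 to 40.9 CPM in *Cxcl12* KO and 44.9 to 60.5 CPM in *Cxcl12* control kidneys, whereas *Myc* had 26.6 to 37.02 CPM in *Myc* KO and 79.7 to 117 CPM in *Myc* control kidneys. Both targeted genes were thus lower in all KO kidneys of their own cohort. The log2 fold changes with their standard errors (SE) were -0.73 ± 0.15 (SE, adjusted p = 0.0942) and -1.61 ± 0.12 (SE, adjusted p = 8.82e-05) in edgeR's quasi-likelihood test, in which the second passed, and DESeq2 gave *Cxcl12* an adjusted p of 0.00178. The cohorts came from separate floxed lines, and line, litter and handling cannot be told apart between them.

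The VEGF receptor genes and *Tek* are shown by the sequence just before their start. *Flt1* and *Kdr* followed *Cdh5* in the size of the log2 fold change in *Myc* KO kidneys. *Tek* had a log2 fold change below 0 in both cohorts, with KO and control kidneys overlapping. None of these changes passed edgeR's test. RefSeq windows of GRCm38.p6 matched 6 of the 10 genes (*Kdr*, *Flt1*, *Tek*, *Tie1*, *Emcn* and *Ehd3*). Each line gives the 250 bases before RefSeq's start on the coding strand, 5′ to 3′, and capitals mark GGAA or its complement TTCC, the core that ETS factors bind and that endothelial enhancers are known for.
Kdr, chr5:75978456-75978705, minus strand: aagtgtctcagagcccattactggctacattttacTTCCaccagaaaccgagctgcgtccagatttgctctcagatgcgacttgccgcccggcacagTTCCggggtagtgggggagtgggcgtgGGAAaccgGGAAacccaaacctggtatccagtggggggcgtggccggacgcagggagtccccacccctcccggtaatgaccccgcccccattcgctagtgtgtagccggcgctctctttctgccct
Flt1, chr5:147726012-147726261, minus strand: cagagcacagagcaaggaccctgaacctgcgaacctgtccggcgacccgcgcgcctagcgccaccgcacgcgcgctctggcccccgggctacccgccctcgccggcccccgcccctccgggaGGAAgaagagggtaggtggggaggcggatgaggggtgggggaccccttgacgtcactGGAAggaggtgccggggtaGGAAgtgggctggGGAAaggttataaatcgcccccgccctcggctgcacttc
Tek, chr4:94739039-94739288, plus strand: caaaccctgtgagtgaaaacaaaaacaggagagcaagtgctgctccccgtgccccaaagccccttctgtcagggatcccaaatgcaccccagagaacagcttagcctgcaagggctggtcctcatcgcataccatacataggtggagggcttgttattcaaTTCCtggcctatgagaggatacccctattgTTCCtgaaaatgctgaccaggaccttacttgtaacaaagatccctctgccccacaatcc
The core was found on either strand 4 times in the *Kdr*, 4 times in the *Flt1* and 2 times in the *Tek* window, against a median of 3 over 32851 windows of the same length, 93.4% of which held it. The longer AGGAAG, which contains the core, was found in 3 of the 6 windows (*Flt1*, *Tie1* and *Emcn*) and in 29.5% of all windows. ACAAT, the core that SOX factors bind, was found in 2 of the 6 (*Tek* and *Emcn*) and in 27.7% of all windows. GATAA, the core for GATA factors, was in 0 of the 6 and in 22.6% of all. These are matches of letters and no sites of binding.

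Per kilobase of exon, *Plvap* had the highest level of the 10 genes, with 98.4 CPM per kb over the 18 kidneys, above 97.4% of the 13735 genes with a mean of at least 1 CPM and a known exon length. *Cdh5* followed with 31.9 and *Pecam1* with 24.4 CPM per kb. *Emcn*, *Flt1* and *Kdr* lay close together at 17.96, 16.9 and 16.6 CPM per kb, and *Tie1*, *Tek* and *Ehd3* at 7.60, 7.15 and 6.10 CPM per kb. *Sox17* was lowest with 2.90 CPM per kb, above 32.6% of those genes. All 10 were thus read in every kidney, and *Plvap*, both junction genes, *Emcn* and both VEGF receptors had higher levels per kb than the TIE receptors, *Ehd3* and *Sox17*.

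In neither cohort did any of the 10 genes pass the test between KO and control kidneys. *Cdh5* had the highest log2 fold change of them in both, 0.45 after the deletion of *Cxcl12* and 0.57 after the deletion of *Myc*. *Flt1* came next in both, and *Kdr* close behind it in *Myc* mice. *Tek* and *Plvap* had log2 fold changes below 0 in both cohorts, and *Ehd3* and *Tie1* in *Cxcl12* mice alone.

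In *Cxcl12* mice edgeR called 0 of the 10 genes and 0 of all 15154 genes tested (0%). An unadjusted p under 0.05 was found for *Cdh5* and *Flt1* with log2 fold changes above 0, as for 6.41% of all genes. It was found for *Tie1* with a log2 fold change below 0, as for 6.63%. DESeq2 called 0 of the 10 and 2.38% of all genes. In *Myc* mice edgeR called 0 of the 10 and 1.65% of the 14936 genes tested. An unadjusted p under 0.05 was found for *Cdh5*, *Kdr* and *Flt1*, all with log2 fold changes above 0, as for 10.6% of all genes. DESeq2 called *Cdh5* (adjusted p = 0.0397) and *Kdr* (adjusted p = 0.047), 2 of the 10, and 8.76% of all genes. A log2 fold change above 0 was found for 6 of the 10 in *Cxcl12* mice, against 50.2% of all genes, and for 8 of the 10 in *Myc* mice, against 49.9%. The medians of the 10 were 0.034 and 0.18, and those of all genes 0.00083 and -0.00083.

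**Figure D1:**
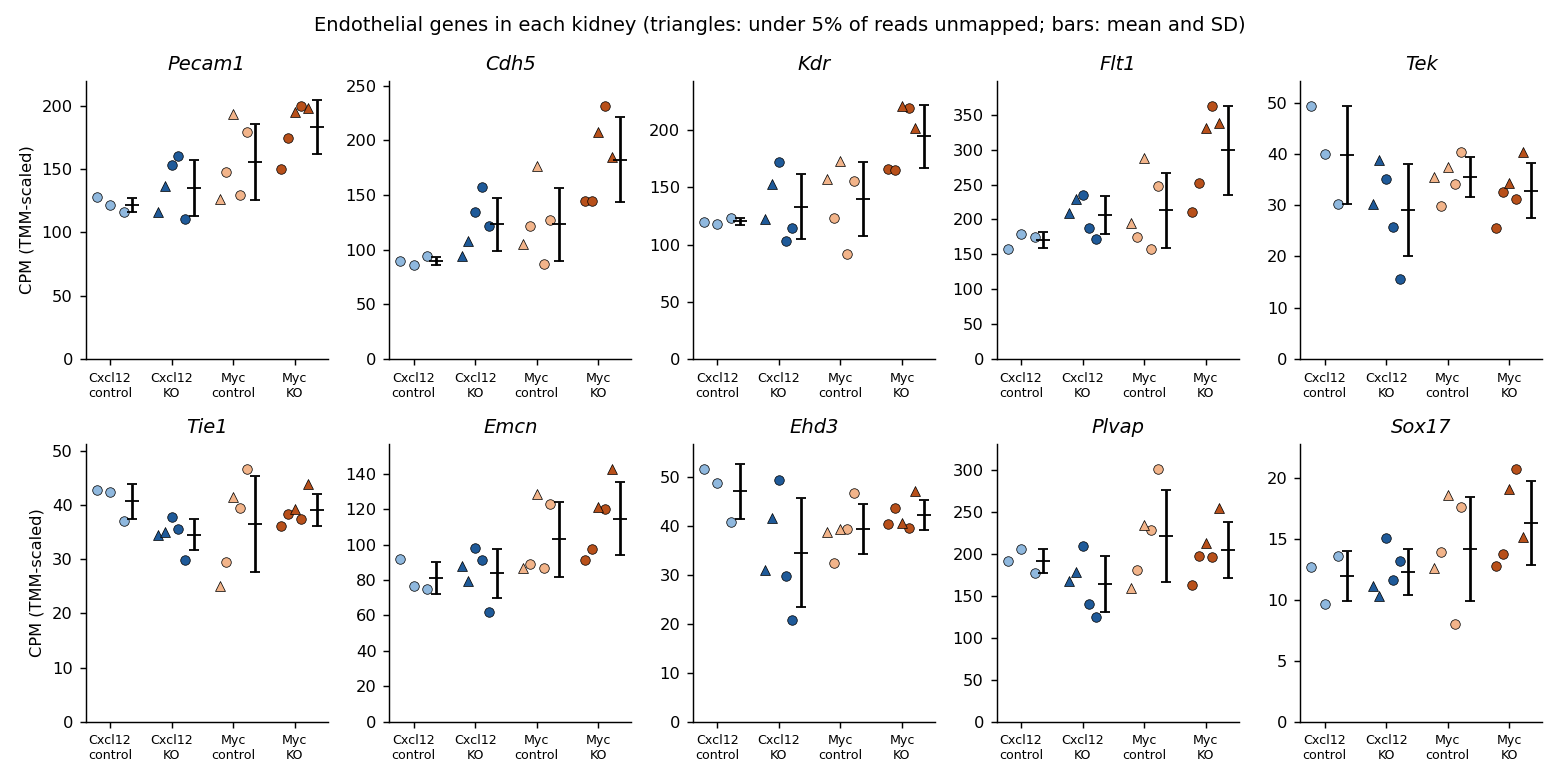
CPM of each of the 10 endothelial genes (vertical axis, from 0) in each of the 18 kidneys by group, with the mean and SD of each group as bars and kidneys with under 5% of reads unmapped as triangles. The *Cdh5* values of the 5 *Cxcl12* KO kidneys (94.3 to 158 CPM) lie above those of the 3 *Cxcl12* control kidneys (86.4 to 93.9 CPM), and the other panels show overlapping KO and control kidneys within each cohort.

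*Pecam1* (ENSMUSG00000020717, chromosome 11, 106654217 to 106750628 on GRCm38) encodes CD31, an adhesion protein of endothelial contacts that platelets and leukocytes carry too. It had 116, 137, 154, 160.4 and 111 CPM in *Cxcl12* KO and 128, 122 and 116 CPM in *Cxcl12* control kidneys. Of the KO kidneys, 3 lay above all controls and the other 2 below them, KO kidney 1 narrowly, and the log2 fold change was 0.15 ± 0.13 (SE, adjusted p = 0.649). In the *Myc* cohort it had 150.2, 174, 196, 199.7 and 198 CPM in KO and 127, 148, 194, 129 and 179 CPM in control kidneys. The KO kidneys all lay above 3 of the controls, but control kidneys 3 and 5 lay among them. The log2 fold change of 0.24 ± 0.13 (SE, adjusted p = 0.294) did not pass edgeR's test.

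*Cdh5* (ENSMUSG00000031871, chromosome 8, 104101625 to 104144511) encodes VE-cadherin, the adherens junction protein that holds endothelial cells together. It had 94.3, 108, 134, 158 and 122 CPM in *Cxcl12* KO and 89.2, 86.4 and 93.9 CPM in *Cxcl12* control kidneys. All 5 KO kidneys lay above all 3 controls, KO kidney 1 by a narrow margin. *Cdh5* was the 1 gene of the 10 without overlap in this cohort, while 4.75% of all genes tested lay higher and 4.88% lower in every KO kidney. Its log2 fold change was 0.45 ± 0.14 (SE, adjusted p = 0.245) with an unadjusted p of 0.0103 from edgeR. The kidneys with under 5% of reads unmapped all belong to the KO group in this cohort. With a term for them it was 0.61 and passed (adjusted p = 0.038), and without those kidneys it was 0.60 (adjusted p = 0.0663). Its adjusted p ranged from 0.038 to 0.561 over all alternatives, edgeR's and others.

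In *Myc* mice, *Cdh5* had 144, 144, 207, 231 and 185 CPM in KO and 105, 121, 176, 86.7 and 127 CPM in control kidneys. The groups overlapped only through control kidney 3, which lay above KO kidneys 1 and 2. The means were 182 ± 38.5 CPM (SD, n = 5) and 123 ± 33.5 CPM (SD, n = 5), and the log2 fold change was 0.57 ± 0.18 (SE, adjusted p = 0.121) by edgeR's test. Without control kidney 3 it was 0.73 (edgeR adjusted p = 0.0291), and over all alternatives the adjusted p ranged from 0.0291 to 0.25. No gene of the 10 was without overlap in *Myc* mice, while 2.12% of all genes lay higher and 3.74% lower in every KO kidney. The log2 ratio of *Cdh5* over *Pecam1* in CPM of the same kidney was -0.14 ± 0.20 (SD, n = 5) in *Cxcl12* KO kidneys against -0.44 ± 0.11 (SD, n = 3) in their controls. It was -0.029 ± 0.18 (SD, n = 5) in *Myc* KO kidneys against -0.35 ± 0.18 (SD, n = 5) in their controls. The ratio of both junction genes overlapped between KO and control kidneys in each cohort.

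*Kdr* (ENSMUSG00000062960, chromosome 5, 75932827 to 75978458), the main signalling receptor for VEGF, had 123, 153, 172, 103 and 114 CPM in *Cxcl12* KO and 119, 118 and 123 CPM in *Cxcl12* control kidneys. The controls lay close together and the KO kidneys on both sides of them, with a log2 fold change of 0.14 ± 0.15 (SE, adjusted p = 0.72). In *Myc* KO kidneys it had 166, 165, 221, 219 and 202 CPM and in *Myc* control kidneys 157, 123, 173, 91.8 and 155 CPM. All KO kidneys lay above 4 of the 5 controls, and only control kidney 3 lay above KO kidneys 1 and 2. The log2 fold change was 0.48 ± 0.16 (SE, adjusted p = 0.123) with a 95% interval from 0.13 to 0.82, by edgeR's test.

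*Flt1* (ENSMUSG00000029648, chromosome 5, 147561604 to 147726011), the VEGF receptor that also yields a soluble trap, had 209, 230.0, 236, 188 and 172 CPM in *Cxcl12* KO and 157, 179 and 175 CPM in *Cxcl12* control kidneys. All KO kidneys but KO 5 lay above every control, and the log2 fold change was 0.28 ± 0.12 (SE, adjusted p = 0.363), with an unadjusted p of 0.0393. It had 211, 253, 331, 362 and 338 CPM in *Myc* KO and 195, 176, 288, 158 and 247 CPM in *Myc* control kidneys. Here 3 controls lay below all KO kidneys, while control kidneys 3 and 5 reached into the KO range. The log2 fold change was 0.49 ± 0.18 (SE, adjusted p = 0.156), with an unadjusted p of 0.019. The log2 ratio of *Kdr* over *Flt1* in CPM was -0.65 ± 0.16 (SD, n = 5) in *Cxcl12* KO kidneys against -0.50 ± 0.10 (SD, n = 3) in their controls. For *Myc* KO kidneys it was -0.60 ± 0.16 (SD, n = 5) and for their controls -0.60 ± 0.19 (SD, n = 5). It overlapped between all 4 groups. Reads of the membrane and the soluble form of *Flt1* cannot be told apart in counts per gene.

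**Figure D2:**
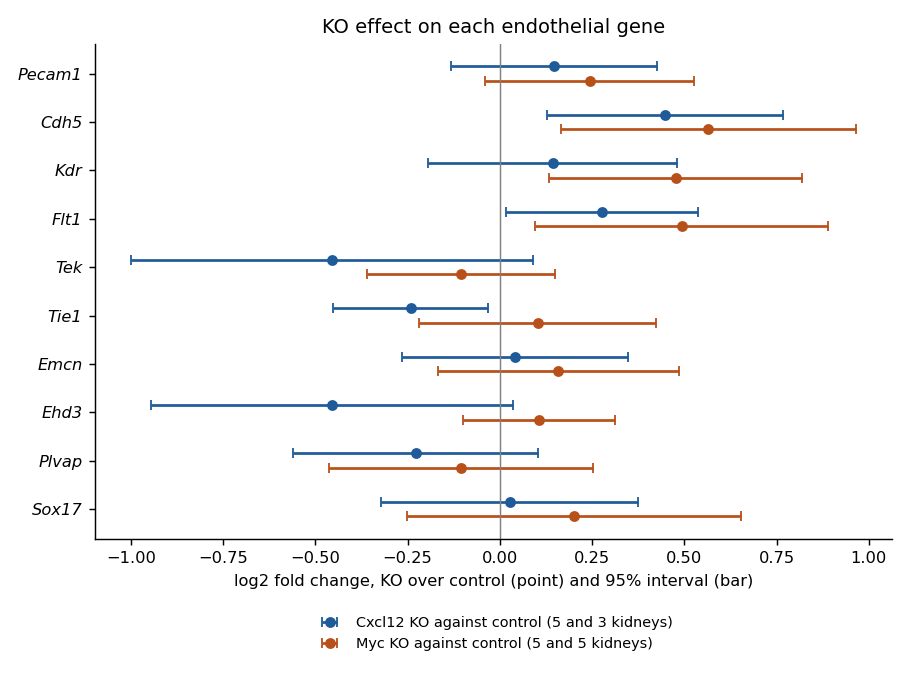
Log2 fold change of KO over control kidneys (point) with its 95% interval (bar) for each of the 10 genes in the *Cxcl12* (5 and 3 kidneys) and the *Myc* cohort (5 and 5 kidneys), from edgeR. The intervals of *Cdh5* and *Flt1* lie above 0 in both cohorts, that of *Kdr* in the *Myc* cohort and that of *Tie1* below 0 in the *Cxcl12* cohort, all without adjustment for the number of genes.

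*Tek* (ENSMUSG00000006386, chromosome 4, 94739289 to 94874976) encodes TIE2, the receptor that angiopoietins bind. It had 30.1, 38.8, 35.01, 25.8 and 15.6 CPM in *Cxcl12* KO and 49.3, 39.99 and 30.2 CPM in *Cxcl12* control kidneys. KO 5 had the lowest value of all 18 kidneys and control kidney 1 the highest, and control kidney 3 lay among the KO kidneys. The log2 fold change was -0.45 ± 0.25 (SE, adjusted p = 0.46), and its 95% interval from -0.999 to 0.089 was the widest of the 10 genes in this cohort. In *Myc* KO and control kidneys, with 25.6, 32.5, 34.3, 31.3 and 40.4 CPM and 35.6, 29.9, 37.4, 34.2 and 40.3 CPM, it overlapped throughout, and the log2 fold change was -0.11 ± 0.12 (SE, adjusted p = 0.627) from edgeR.

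*Tie1* (ENSMUSG00000033191, chromosome 4, 118471191 to 118490061), the partner of TIE2, had 34.4, 35.01, 37.9, 35.6 and 29.9 CPM in *Cxcl12* KO and 42.8, 42.4 and 37.1 CPM in *Cxcl12* control kidneys. Only KO kidney 3 lay above a control, control kidney 3. The log2 fold change was -0.24 ± 0.10 (SE, adjusted p = 0.328) with an unadjusted p of 0.0284 and the smallest SE of the 10 genes in this cohort. In *Myc* mice it had 36.2, 38.3, 39.3, 37.5 and 44.01 CPM in KO and 25.1, 29.6, 41.6, 39.5 and 46.7 CPM in control kidneys. The KO kidneys lay close together inside the wide range of the controls, and the log2 fold change was 0.10 ± 0.15 (SE, adjusted p = 0.716), which turned to -0.038 without the kidneys with under 5% of reads unmapped.

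*Emcn* (ENSMUSG00000054690, chromosome 3, 137341067 to 137432185) encodes endomucin, a sialomucin of capillary and venous endothelium. It had 87.8, 79.4, 97.9, 91.3 and 61.9 CPM in *Cxcl12* KO and 91.7, 76.9 and 74.7 CPM in *Cxcl12* control kidneys, which overlapped, and a log2 fold change of 0.041 ± 0.14 (SE, adjusted p = 0.928). The *Myc* KO kidneys had 91.2, 97.5, 121, 120.3 and 143 CPM and their controls 86.99, 88.99, 128, 86.8 and 123 CPM. Control kidneys 3 and 5 lay above 4 of the KO kidneys and the other controls below all of them, and the log2 fold change was 0.16 ± 0.15 (SE, adjusted p = 0.561).

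*Ehd3* (ENSMUSG00000024065, chromosome 17, 73804134 to 73832094), a membrane-trafficking protein that marks glomerular endothelium in the kidney, had 30.9, 41.5, 49.4, 29.8 and 20.8 CPM in *Cxcl12* KO and 51.5, 48.8 and 40.7 CPM in *Cxcl12* control kidneys. KO kidneys 1, 4 and 5 lay below every control and KO kidneys 2 and 3 among them, and the log2 fold change was -0.45 ± 0.22 (SE, adjusted p = 0.416). It had 40.3, 43.6, 40.5, 39.5 and 46.98 CPM in *Myc* KO and 38.7, 32.3, 39.4, 39.4 and 46.6 CPM in *Myc* control kidneys. Of these controls, 4 lay below all KO kidneys and control kidney 5 near the top of them, with a log2 fold change of 0.11 ± 0.095 (SE, adjusted p = 0.531) from edgeR.

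*Plvap* (ENSMUSG00000034845, chromosome 8, 71497765 to 71511752) builds the diaphragms of capillary pores, which peritubular capillaries have and mature glomerular capillaries lack. It had 167, 178, 209, 139.7 and 125 CPM in *Cxcl12* KO and 191, 206 and 177 CPM in *Cxcl12* control kidneys. KO kidneys 1, 4 and 5 lay below every control and KO kidney 3 above them, and the log2 fold change was -0.23 ± 0.15 (SE, adjusted p = 0.548). In *Myc* KO kidneys it had 163, 197, 213, 196 and 254 CPM and in their controls 159, 181, 234, 228 and 301 CPM. These overlapped throughout, and the log2 fold change was -0.11 ± 0.16 (SE, adjusted p = 0.74). *Plvap* overlaps *Gtpbp3* on the other strand, which had at most 463 reads in a kidney against at least 2013 for *Plvap*, in libraries whose counts do not separate the strands. The log2 ratio of *Plvap* over *Ehd3* in CPM was 2.29 ± 0.22 (SD, n = 5) in *Cxcl12* KO kidneys against 2.03 ± 0.12 (SD, n = 3) in their controls. It was 2.27 ± 0.17 (SD, n = 5) in *Myc* KO kidneys against 2.46 ± 0.25 (SD, n = 5) in their controls, and KO and control kidneys overlapped in each cohort.

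*Sox17* (ENSMUSG00000025902, chromosome 1, 4490931 to 4497354), a transcription factor of arterial endothelium, had 11.1, 10.3, 15.1, 11.7 and 13.2 CPM in *Cxcl12* KO and 12.7, 9.63 and 13.6 CPM in *Cxcl12* control kidneys. It had 12.8, 13.7, 19.1, 20.7 and 15.1 CPM in *Myc* KO and 12.6, 13.96, 18.6, 8.01 and 17.6 CPM in *Myc* control kidneys. The groups overlapped in both cohorts, and control kidney 4 of the *Myc* cohort had the lowest value of all. The log2 fold changes were 0.027 ± 0.16 (SE, adjusted p = 0.96) and 0.20 ± 0.21 (SE, adjusted p = 0.599) by edgeR's test.

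By mean level, *Pecam1*, *Cdh5*, *Kdr*, *Flt1*, *Emcn* and *Sox17* were highest in *Myc* KO kidneys, followed by their controls, then by *Cxcl12* KO kidneys and, lowest, the controls of these. For *Cdh5* the means in that order were 182 ± 38.5 CPM (SD, n = 5), 123 ± 33.5 CPM (SD, n = 5), 123 ± 24.4 CPM (SD, n = 5) and 89.8 ± 3.77 CPM (SD, n = 3). *Tek*, *Tie1* and *Ehd3* had their highest mean in *Cxcl12* control and their lowest in *Cxcl12* KO kidneys, with 47.01 ± 5.63 CPM (SD, n = 3) and 34.5 ± 11.1 CPM (SD, n = 5) for *Ehd3*. *Plvap* had its highest mean in *Myc* control kidneys, 220.5 ± 54.9 CPM (SD, n = 5). Neighbours in these orders overlapped by kidney in all 10 genes except *Cdh5* between *Cxcl12* KO and control kidneys, and the highest group mean was from 1.18 to 2.03 times the lowest.

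The KO effect was then compared between the cohorts in a fit of all 18 kidneys. All 10 genes had a higher log2 fold change in the *Myc* than in the *Cxcl12* cohort, while 49.0% of all 15903 genes tested did. Without the 6 kidneys with under 5% of reads unmapped, *Plvap* turned to -0.055 and the other 9 stayed above 0. A difference above 0 was not particular to the 10 genes, whose median was 0.19. Of the lists given below, it was found for 7 of 7 proximal tubule markers (median 0.37). The same held for 8 of 8 markers of pericytes, mesangium and smooth muscle (median 0.26). It was found for 1 of 5 flow and anticoagulant genes and 0 of 5 red cell markers. EdgeR called 0 of the 10 and 0.0692% of all genes, and DESeq2 0 of the 10 and 3.04% of all. The difference was largest for *Ehd3*, 0.55 ± 0.25 (SE, adjusted p = 0.394), the only one of the 10 with an unadjusted p under 0.05 (0.0357), against 4.62% of all genes in that direction. It was 0.34 for *Tek*, 0.34 for *Tie1* and 0.33 for *Kdr*, and smallest for *Pecam1* with 0.091, with standard errors between 0.19 and 0.29. Each gene's value shares its control kidneys with the cohort comparisons above, and the values of the 10 genes are not independent of each other.

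Both control groups had the same times of ischemia and reperfusion, but whether the injury was of like degree was not tested. EdgeR called 0 of the 10 genes and 1.99% of all genes between *Myc* and *Cxcl12* control kidneys. *Cdh5* (0.46, standard error 0.20) and *Pecam1* (0.35, standard error 0.15) had an unadjusted p under 0.05, higher in *Myc* control kidneys, against 9.42% of all genes in that direction. Above 0 were 7 of the 10, as were 49.3% of all genes, with *Tek*, *Tie1* and *Ehd3* below, from -0.26 to -0.16. The levels of *Cdh5* in *Myc* control kidneys thus differed from those in *Cxcl12* control kidneys by about as much as KO from control within a cohort, without passing the test. DESeq2 called 0 of the 10 and 5.46% of all genes.

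**Figure D3:**
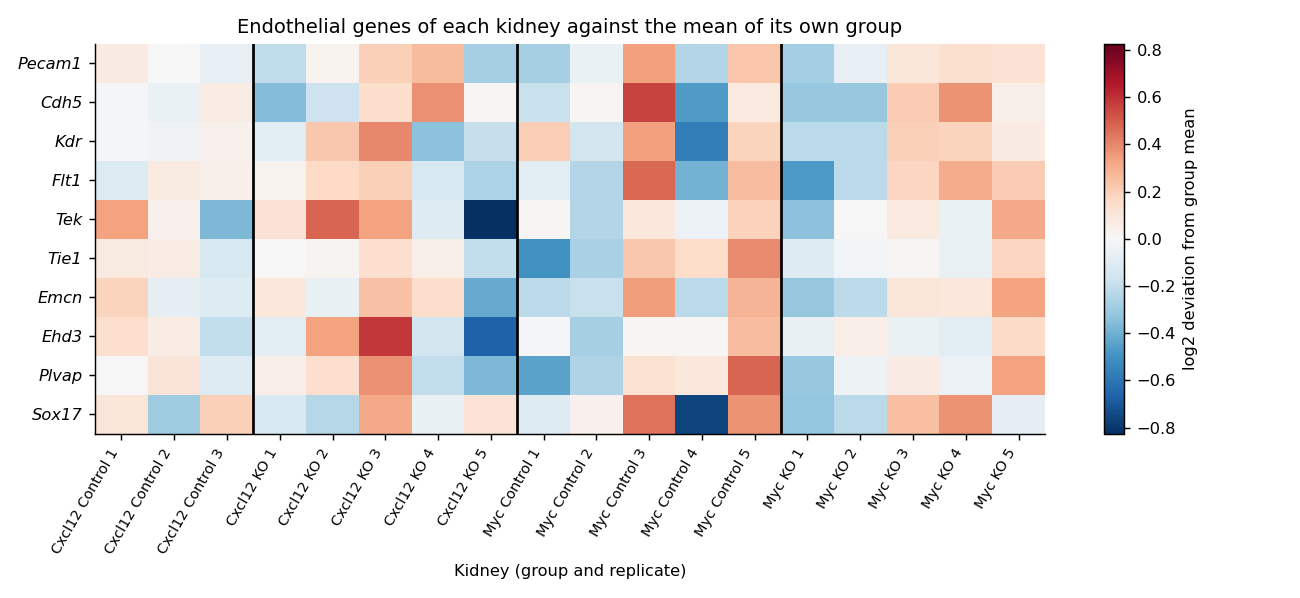
Log2 deviation of each of the 10 genes (rows) in each of the 18 kidneys (columns) from the mean of the kidney's own group, red above and blue below. *Cxcl12* KO 3, *Myc* control 3 and *Myc* control 5 are above their group mean for all 10 genes and *Myc* KO 1 is below it for all 10.

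Within groups, the 10 genes mostly moved together from kidney to kidney. In *Cxcl12* KO 3, *Myc* control 3 and *Myc* control 5 all 10 lay above the mean of the group, by 0.29, 0.29 and 0.27 log2 units on average, and in *Myc* KO 1 all 10 lay below it, by a mean of -0.27. *Cxcl12* KO 5 had a mean deviation of -0.31 and 8 of the 10 below. Over the 18 kidneys, the deviations of 44 of 45 pairs of the genes had a Pearson r above 0, from -0.025 for *Cdh5* and *Ehd3* to 0.88 for *Tek* and *Ehd3*, with a median of 0.56. *Tie1* and *Plvap* (r = 0.87), *Pecam1* and *Emcn* (r = 0.86) and *Kdr* and *Flt1* (r = 0.83) were the next closest pairs, and *Cdh5* and *Sox17* had an r of 0.80. *Emcn* was closest to the mean of the other 9 genes (r = 0.90) and *Cdh5* farthest from it (r = 0.53). The kidneys of each pair of values share a library and its depth, and these correlations are a description. No such counts or correlations were made for sets of other genes. Whether the 10 genes moved together more than other genes do was thus not tested.

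The 6 kidneys with under 5% of reads unmapped were also the most deeply read ones. In *Myc* KO mice, all 10 genes were higher in the 2 kidneys of this kind than in the other 3, by a median of 0.22 log2 units and by 0.085 to 0.36. In *Myc* control mice 8 of the 10 were higher, with a median of 0.093, and in *Cxcl12* KO mice 7 of the 10, with a median of 0.067. The part of this share in the KO effects was measured only through the fits with a term for these kidneys or without them, in which edgeR called *Cdh5* once and the 10 genes kept the direction of their log2 fold changes in both cohorts except *Tie1* in the *Myc* cohort.

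The genes whose deviations were most like the mean of the 10 genes over the 18 kidneys, among 13758 other genes with at least 1 CPM on average, with or without a known exon length, were *Sfxn3* (r = 0.95), *Gimap5* (0.95), *Rcn1* (0.94), *Scin* (0.94), *Tbc1d2b* (0.94), *Elk3* (0.94), *Armcx2* (0.94), *Colec12* (0.93), *Atp8a1* (0.93) and *Stk39* (0.93). None of these was in a list used here, so the shared movement within groups was not limited to the listed genes. Which cells express these genes was not examined. *Sfxn3* had a log2 fold change of 0.29 in *Cxcl12* mice and of 0.36 in *Myc* mice (edgeR adjusted p = 0.367 and 0.228).

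Other endothelial genes were read from lists of known markers. Of 26 general endothelial genes, 16 had a log2 fold change above 0 in *Cxcl12* mice and 24 in *Myc* mice, with medians of 0.022 and 0.32. EdgeR called 0 of them in both. An unadjusted p under 0.05 was found for 7 higher and 2 lower genes in *Cxcl12* mice, against 6.41% and 6.63% of all genes, and for 10 higher ones in *Myc* mice, against 10.6%. DESeq2 called 1 in *Cxcl12* mice, where it called 2.38% of all genes, and 4 in *Myc* mice, where it called 8.76%. *S1pr1*, the sphingosine 1-phosphate receptor that tightens endothelial barriers, had 64.95 to 84.95 CPM in *Cxcl12* KO and 47.8 to 51.6 CPM in *Cxcl12* control kidneys without overlap. Its log2 fold change was 0.57 ± 0.11 (SE, adjusted p = 0.0856) by edgeR, and DESeq2 gave an adjusted p of 0.000531. Over all alternatives in *Cxcl12* mice, edgeR's and others, its adjusted p was 0.000531 to 0.29. *Nos3*, the endothelial nitric oxide synthase, had 44.4 to 56.4 CPM in *Myc* KO and 27.3 to 40.8 CPM in *Myc* control kidneys, also without overlap. Its log2 fold change was 0.49 ± 0.12 (SE, adjusted p = 0.0636) by edgeR, and DESeq2 gave an adjusted p of 0.00736.

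Arterial genes, the vessel class of *Sox17*, held the only genes of the endothelial lists that passed edgeR's test between KO and control kidneys. RNA of whole kidneys does not show in which cells these genes changed. *Notch1*, the Notch receptor of arterial endothelium that other kidney cells express too, rose in *Myc* KO kidneys, where it had 68.5, 84.3, 92.6, 91.5 and 75.8 CPM against 52.6, 52.2, 63.97, 39.3 and 58.5 CPM in control kidneys. All KO kidneys lay above all controls, and the log2 fold change was 0.63 ± 0.13 (SE, adjusted p = 0.0314). *Jag1*, a Notch ligand, rose as well, with 59.2, 61.9, 70.5, 60.3 and 61.4 CPM in KO and 38.7, 41.1, 48.2, 36.4 and 51.6 CPM in control kidneys and a log2 fold change of 0.54 ± 0.10 (SE, adjusted p = 0.0251). Again every KO kidney lay above every control. Of all genes tested, edgeR called 0.355% as higher in *Myc* KO kidneys. All 9 arterial genes lay above 0 in both cohorts, with medians of 0.12 and 0.41, and edgeR called 0 and 2 of them. Both calls were lost without *Myc* KO 2, 3, 4 or 5 or control 2 in turn, that of *Notch1* also without control 5 and that of *Jag1* also without control 4. Both were lost as well with the replicate number as a block (adjusted p = 0.0735 and 0.0513) and without the 6 kidneys with under 5% of reads unmapped (0.0701 and 0.0806). Over all alternatives the adjusted p was 0.000354 to 0.0986 for *Notch1* and 0.00013 to 0.0857 for *Jag1*. The difference of the KO effect between the cohorts was 0.60 ± 0.20 (SE, adjusted p = 0.216) for *Notch1* and 0.43 ± 0.14 (SE, adjusted p = 0.214) for *Jag1* and did not pass.

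Among the ligands and co-receptors of the VEGF receptors, 0 of 7 passed in either cohort, with 3 above 0 in each and medians of -0.038 and -0.17. *Vegfa*, the main ligand of *Kdr* and *Flt1*, had log2 fold changes of 0.046 ± 0.13 (SE, adjusted p = 0.908) in *Cxcl12* mice and 0.28 ± 0.11 (SE, adjusted p = 0.165) in *Myc* mice. *Pgf*, which binds *Flt1* alone of both receptors, had only 1.18 to 1.44 CPM in *Cxcl12* control and 1.25 to 9.05 CPM in *Cxcl12* KO kidneys, with a log2 fold change of 1.60 ± 0.56 (SE, adjusted p = 0.28), and 0.66 (adjusted p = 0.198) in the *Myc* cohort. Of 5 ligands and partners of the TIE receptors, 1 lay above 0 in *Cxcl12* mice and 5 in *Myc* mice, with medians of -0.10 and 0.40, and edgeR called none. *Angpt2*, the angiopoietin that activated endothelium releases and that blocks TIE2 in many settings, had 18.5, 19.9, 22.6, 20.98 and 23.1 CPM in *Cxcl12* KO and 14.2, 15.3 and 15.8 CPM in *Cxcl12* control kidneys, with no overlap. The log2 fold changes of *Angpt2* were 0.47 ± 0.11 (SE, adjusted p = 0.108) and 0.55 ± 0.23 (SE, adjusted p = 0.19). In *Cxcl12* mice DESeq2 called it (adjusted p = 0.0119), as did edgeR with the term for kidneys with under 5% of reads unmapped (adjusted p = 0.0443). *Ptprb*, the phosphatase that damps TIE2, had -0.10 (adjusted p = 0.769) and 0.40 (adjusted p = 0.147), all from edgeR.

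Of 7 other glomerular endothelial genes tested, 2 lay above 0 in *Cxcl12* mice and 7 in *Myc* mice, with medians of -0.091 and 0.32, and edgeR called none. *Plat*, tissue plasminogen activator, had 289 to 451 CPM in *Cxcl12* KO and 226 to 249.5 CPM in *Cxcl12* control kidneys without overlap. Its log2 fold change was 0.62 ± 0.15 (SE, adjusted p = 0.132) by edgeR, where DESeq2 gave an adjusted p of 0.00627, and 0.46 ± 0.22 (SE, adjusted p = 0.232) in *Myc* mice. *Mapt* had log2 fold changes of -0.30 and 0.057 (adjusted p = 0.427 and 0.734). Capillary and vasa recta genes were split, 3 of 6 above 0 in each cohort with medians of -0.11 and 0.040. EdgeR called none of them, and DESeq2 called *Igfbp3* in *Cxcl12* mice (adjusted p = 0.0325). By edgeR, *Igfbp3* had 0.67 ± 0.20 (SE, adjusted p = 0.211) and 0.56 ± 0.21 (SE, adjusted p = 0.158), while the apelin receptor gene *Aplnr*, at 0.124 to 1.25 CPM in *Cxcl12* KO and 1.08 to 2.99 CPM in *Cxcl12* control kidneys, had -1.51 ± 0.55 (SE, adjusted p = 0.294) and -0.31 ± 0.47 (SE, adjusted p = 0.727). Venous and lymphatic genes had 2 of 5 above 0 in *Cxcl12* mice and 5 of 5 in *Myc* mice, with medians of -0.10 and 0.37. EdgeR called none of them, and DESeq2 called *Flt4* in *Myc* mice (adjusted p = 0.0299), as edgeR did without *Myc* control 3 (adjusted p = 0.0241). Their VEGF-C receptor gene *Flt4* had 0.20 ± 0.12 (SE, adjusted p = 0.478) and 0.38 ± 0.11 (SE, adjusted p = 0.0957), and the hyaluronan receptor gene *Lyve1* 0.84 ± 0.26 (SE, adjusted p = 0.221) and 0.53 ± 0.29 (SE, adjusted p = 0.304), in log2 fold change from edgeR.

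**Figure D4:**
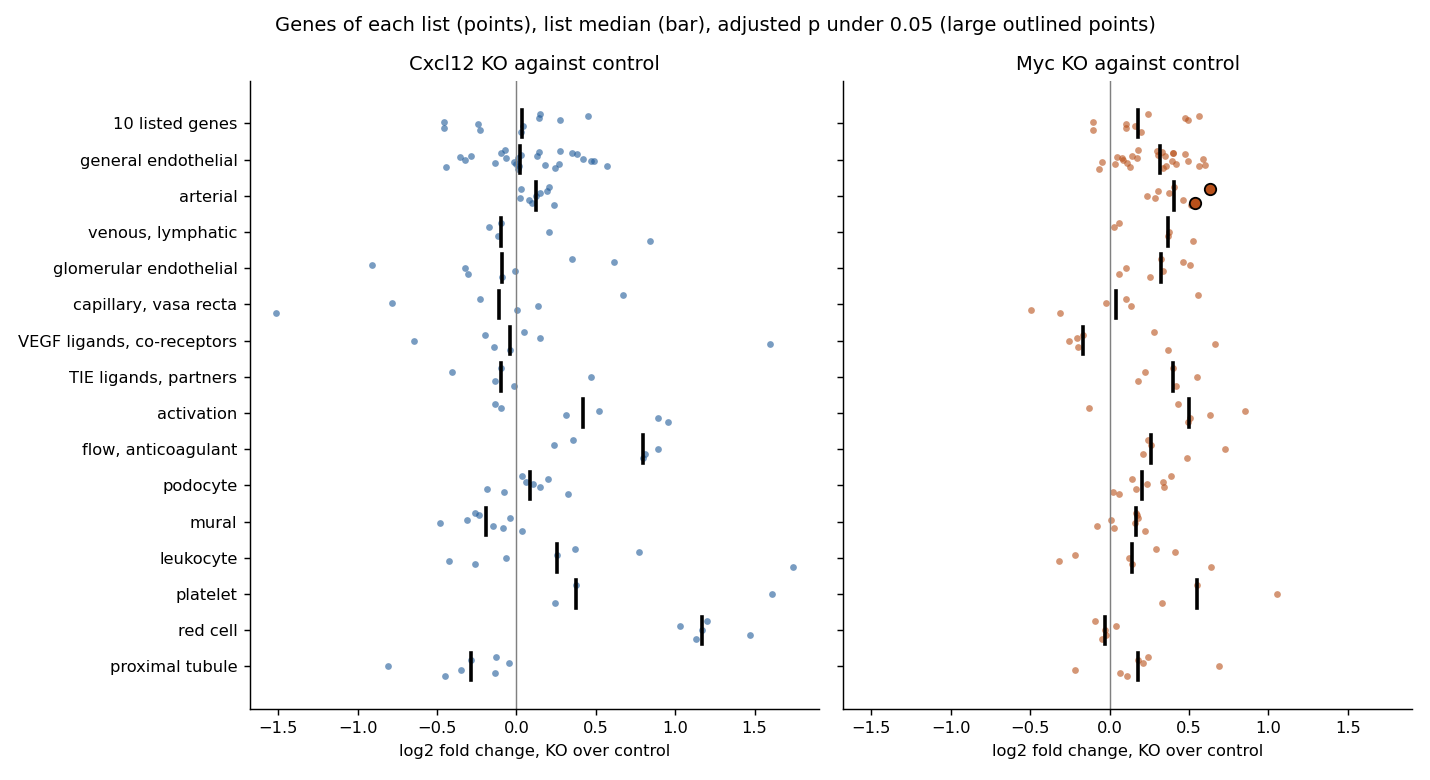
Log2 fold change of KO over control kidneys for each tested gene of the 16 lists (points) with the median of the list (bar), in the *Cxcl12* (left) and the *Myc* cohort (right). Large outlined points mark an edgeR adjusted p under 0.05, which only *Notch1* and *Jag1* of the arterial list reached in the *Myc* cohort.

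The highest list median after the deletion of *Cxcl12* among endothelial genes was that of 5 genes that answer to flow or hold back clotting, 0.80, with all 5 above 0. EdgeR called none of them, and DESeq2 called 3, against 2.38% of all genes. For 3 (*Thbd*, *Procr* and *Edn1*) every KO kidney lay above every control, as for 4.75% of all genes. All 5 lay above 0 in *Myc* mice as well, with a median of 0.26. *Thbd*, thrombomodulin, which turns thrombin to the anticoagulant side, had 243, 339, 473, 412 and 427 CPM in *Cxcl12* KO and 192, 199 and 221 CPM in *Cxcl12* control kidneys. It had 535, 588, 768, 838 and 686 CPM in *Myc* KO and 285, 438, 653, 262 and 426 CPM in *Myc* control kidneys. All *Cxcl12* KO kidneys lay above their controls, while *Myc* control kidney 3 lay among the *Myc* KO kidneys. Its log2 fold changes were 0.89 ± 0.19 (SE, adjusted p = 0.0973) and 0.73 ± 0.22 (SE, adjusted p = 0.107) by edgeR. DESeq2 called it in both cohorts (adjusted p = 0.00054 and 0.0204). Over all alternatives of the KO comparisons, edgeR's and others, its adjusted p was 0.00054 to 0.331 in *Cxcl12* mice and 0.0204 to 0.221 in *Myc* mice. *Edn1*, endothelin 1, a vasoconstrictor that collecting duct cells make too, had 0.80 ± 0.19 (SE, adjusted p = 0.132) and 0.49 ± 0.18 (SE, adjusted p = 0.145) by edgeR. Its adjusted p over the same alternatives was 0.00806 to 0.397 in *Cxcl12* mice and 0.0237 to 0.273 in *Myc* mice. Between the control groups, *Thbd* (1.02 ± 0.26 SE, adjusted p = 0.0438), *Procr* (1.004 ± 0.21 SE, adjusted p = 0.0206) and *Edn1* (0.89 ± 0.22 SE, adjusted p = 0.0408) were higher in *Myc* than in *Cxcl12* control kidneys and passed edgeR's test. Each call was lost without any 1 of the 3 *Cxcl12* control kidneys and without *Myc* control 3. Those of *Thbd* and *Edn1* were lost also without *Myc* KO 2 or 3 or *Myc* control 2 or 5, that of *Thbd* without *Cxcl12* KO 2, and that of *Edn1* without *Myc* KO 4. Both were lost as well with limma-voom (adjusted p = 0.0533 and 0.0756) and with the term for kidneys with under 5% of reads unmapped (0.0607 and 0.0653), and *Edn1* with length and GC offsets (0.0616) and without those 6 kidneys (0.0741). Over all alternatives the adjusted p was 0.00221 to 0.185 for *Thbd*, 0.000252 to 0.113 for *Procr* and 0.0032 to 0.169 for *Edn1*.

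Genes of activated endothelium had 4 of 6 above 0 in *Cxcl12* mice and 5 of 6 in *Myc* mice, with medians of 0.42 and 0.50, and edgeR called none of them while DESeq2 called 1 in each. *Esm1*, a proteoglycan that VEGF induces in endothelial tips, had 20.8 to 39.7 CPM in *Cxcl12* KO and 13.5 to 21.02 CPM in *Cxcl12* control kidneys, overlapping through KO kidney 1. Its log2 fold changes by edgeR were 0.89 ± 0.21 (SE, adjusted p = 0.116) in *Cxcl12* and 0.51 ± 0.19 (SE, adjusted p = 0.161) in *Myc* mice. Over all alternatives, edgeR's and others, its adjusted p was 0.00316 to 0.349 in *Cxcl12* mice and 0.0659 to 0.327 in *Myc* mice. *Sele*, E-selectin, which catches leukocytes, had 4.67 to 11.6 CPM in *Myc* KO and 3.04 to 7.01 CPM in *Myc* control kidneys, with log2 fold changes of 0.52 ± 0.33 (SE, adjusted p = 0.531) and 0.85 ± 0.28 (SE, adjusted p = 0.12).

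Markers of other cells of the kidney are given beside the endothelial genes, and their part in the results was not tested. Of 8 podocyte markers, 6 lay above 0 in *Cxcl12* mice and 8 in *Myc* mice (medians 0.084 and 0.20), and their summed level was 619.8 to 947 CPM in *Cxcl12* KO and 654 to 686 CPM in *Cxcl12* control kidneys. In *Myc* KO kidneys it was 838 to 999.6 CPM and in their controls 546 to 935 CPM. Of 8 mural markers, of pericytes, mesangium and smooth muscle, 1 and 7 lay above 0 (medians -0.19 and 0.16), with sums of 535 to 683 CPM in *Cxcl12* KO and 588 to 874 CPM in *Cxcl12* control kidneys. In *Myc* KO kidneys the sum was 647 to 741 CPM and in their controls 525 to 824 CPM. Podocyte and vessel wall markers thus mostly had log2 fold changes above 0 in *Myc* mice, as 8 of the 10 endothelial genes did, and edgeR called none of them.

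Of 9 leukocyte markers, 7 were tested (*Cd3e* and *Cd79a* did not pass the filter) and 4 and 5 lay above 0, with medians of 0.25 and 0.14. Their sum was 84.3 to 141 CPM in *Cxcl12* KO and 84.7 to 94.97 CPM in *Cxcl12* control kidneys. In *Myc* KO kidneys the sum was 160.4 to 201 CPM and in their controls 108 to 194 CPM. Of 5 platelet markers, which bear on *Pecam1*, 3 were tested and all lay above 0 in both cohorts (medians 0.38 and 0.55), and their sums were 5.57 to 18.1, 5.65 to 7.41, 13.1 to 21.1 and 5.24 to 15.1 CPM in the same order of groups, *Cxcl12* KO and its controls, then *Myc* KO and its controls. The 5 red cell markers had medians of 1.17 and -0.027, with 5 and 1 above 0 and sums of 36.1 to 163, 12.5 to 65.3, 42.6 to 110.0 and 30.8 to 174 CPM. The 7 proximal tubule markers, of the cells in which Cre acts, had 0 and 6 above 0, medians of -0.28 and 0.18 and sums of 4918 to 5714, 5819 to 6916, 4228 to 6922 and 4617 to 5788 CPM. No marker of these lists was at 0 in all kidneys of a group, and edgeR called none of them in either cohort. Between the control groups, edgeR called 1.12% of all genes as higher and 0.868% as lower in *Myc* control kidneys. The myeloid genes *Itgam* (1.34 ± 0.26 SE, adjusted p = 0.0146) and *S100a8* (2.51 ± 0.54 SE, adjusted p = 0.0215) were higher there and *Lrp2* (-0.63 ± 0.15 SE, adjusted p = 0.038), the megalin gene of proximal tubules, was lower, all by edgeR. Each of these calls was lost without any 1 of the *Cxcl12* control kidneys. That of *S100a8* was lost also without *Myc* control 3 and with limma-voom (adjusted p = 0.0823). That of *Lrp2* was lost also without *Myc* KO 3 or *Myc* control 2, 3 or 5 and with length and GC offsets (edgeR adjusted p = 0.0504). Over all alternatives the adjusted p was 3.63e-05 to 0.0964 for *Itgam*, 0.000246 to 0.12 for *S100a8* and 0.00493 to 0.161 for *Lrp2*. *Lrp2* and *Procr* were chosen for mention after their values were seen.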

How the data were processed

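RNA of whole kidneys of 18 mice was sequenced. The authors trimmed the reads with Trimmomatic 0.32, mapped them to GRCm38 with STAR 2.4.0 (tools and versions per the labels) and deposited STAR's raw read counts per gene, without normalization. The column that ignores the strand was used. Lines that name no gene (unmapped, ambiguous and similar reads, 29.4% to 32.6% of reads) were left out of library sizes and tests. The paper states that batch effects were adjusted with ComBat. No label names a batch, so none was fitted here, and its part in the group differences was not tested.

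Names, positions, exon lengths and overlaps came from GENCODE vM21 on GRCm38, in which 45143 of the 45706 genes were found, and the promoter windows from RefSeq. Within each cohort, genes that passed filterByExpr were tested in edgeR 4.0.16 (R 4.3.3) by its quasi-likelihood method after TMM scaling. Tests were two-sided, with Benjamini-Hochberg adjustment over all genes tested and a threshold of 0.05. The difference between cohorts and that between the control groups came from a fit of all 18 kidneys. The standard error was the log2 fold change divided by the square root of F. DESeq2 1.42.0, limma 3.58.1, other scalings, filters and fits and the omission of each kidney served as alternatives. Figures were made with Python 3.11.15 and matplotlib 3.10.9. The fits were tested on simulated data.

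The 10 genes, the lists and the rule for named genes were chosen with earlier results of these data known. The rule named the 10 genes, the targeted genes, the 10 genes most like the mean of the 10, and from each list the called genes or else the 2 with the smallest p in a cohort. Lists of other cell types are given by counts and sums. The kidneys with under 5% of reads unmapped were set apart after the mapping shares had been seen. No kidney repeated another of its group within counting noise, as the chi-square of 33 pairs was 5.77 to 69.1 times its degrees of freedom. Replicate numbers were not taken to mark pairs. The deviations of same-numbered KO and control kidneys had a mean r of 0.068 (3 pairs, -0.035 to 0.143) in *Cxcl12* mice. In *Myc* mice the mean was 0.055 (5 pairs, -0.157 to 0.379). Differently numbered kidneys had means of -0.017 (-0.156 to 0.212) and -0.012 (-0.534 to 0.457). So few pairs cannot settle whether the numbers mark pairs. Each kidney is taken as a mouse of its own, as the labels give no other origin. The tests set each group difference against the spread between these kidneys. Sampling error of the counts is part of that spread and was not measured apart from it for single genes. *Sox17* had the fewest reads of the 10, with 130 to 550.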

Additional observations from a re-analysis of the deposited data

Results flagged for a closer look

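In 5 of 126 groups of 5 kidneys examined, 1 kidney stood apart from the others of its group by Dixon's criterion, which chance meets in about 1 of 20 groups. *Jag1* had 70.5 CPM in *Myc* KO 3 against 59.2 to 61.9 in the other *Myc* KO kidneys. *Sele* had 7.01 CPM in *Myc* control 3 against 3.04 to 3.86 in the other *Myc* controls, and control 3 is 1 of the kidneys in which all 10 endothelial genes were above the group mean. The podocyte gene *Nphs1* had 36.9 CPM in *Cxcl12* KO 3 against 26.0 to 28.1. The red cell genes *Hbb-bt* and *Alas2* had 18.1 and 10.6 CPM in *Myc* control 5, against 3.34 to 4.31 and 1.77 to 2.35 in the other *Myc* controls. None of the 10 endothelial genes had such a kidney.

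The KO effect differed between the cohorts by edgeR's test for *Myc*, the targeted gene of one of them, with a difference of -1.83 (adjusted p = 0.000107) between -1.61 in *Myc* mice and 0.21 in *Cxcl12* mice. *Myc* was lower than in every control in 5 of 5 *Myc* KO kidneys.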

How the results depend on the processing

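Of 540 log2 fold changes of the 10 genes recomputed without 1 kidney, 531 kept their direction and side of the threshold, as did 314 of 320 under the other alternatives. Calls among the 10 genes appeared in the *Cxcl12* cohort with a term for kidneys with under 5% of reads unmapped (1, *Cdh5*), in the *Myc* cohort with DESeq2 (2) and, without single kidneys, 0 to 1 (*Cdh5* without control 3), and 0 in the other comparisons. Of the 10 genes, those not overlapping between KO and control kidneys numbered 2 in the *Cxcl12* cohort with length and GC offsets. Without single kidneys they numbered 1 to 3 there (3 without KO 3 or control 3, 2 without KO 5). In the *Myc* cohort they numbered 2 without the 6 kidneys with under 5% unmapped reads, an alternative chosen after seeing the data. Without single kidneys they numbered 0 to 2 there (2 without control 3, 1 without control 5). The share of all genes without overlap was not counted under these alternatives. Smaller groups are more easily without overlap, so no conclusion about the 10 genes is drawn from these counts. Directions turned for *Emcn* in the *Cxcl12* cohort with length and GC offsets (-0.032), for *Tie1* in the *Myc* cohort and *Plvap* in the difference between cohorts without those 6 kidneys (-0.038 and -0.055), for *Mapt* in the *Myc* cohort with length and GC offsets (-0.023) and for *Ptprb* in the *Cxcl12* cohort with a replicate block (0.053). Without single kidneys the ranges crossed 0 in the *Cxcl12* cohort for *Emcn* (-0.022 to 0.14, without KO 3 or control 3), *Sox17* (-0.11 to 0.12, without KO 3, KO 5 or control 2), *Notch1* (-0.066 to 0.12, without KO 2, KO 3 or control 1) and *Vegfa* (-0.038 to 0.11, without KO 3 or control 1). They did so in the *Myc* cohort for *Tie1* (-0.0080 to 0.21, without control 1) and *Plvap* (-0.20 to 0.032, without control 5), and between the controls for *Tek* (-0.33 to 0.013, without *Cxcl12* control 1). For other named genes, 426 of 486 values without 1 kidney and 368 of 409 under the other alternatives kept direction and side of the threshold, while 48 and 12 lost a call and 7 and 27 gained one. The cause was not tested.

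Over all genes, edgeR's 0 calls in *Cxcl12* mice became 214 with no filter on low counts, 25 with all 18 kidneys in 1 fit, 123 with the term for kidneys with under 5% unmapped reads, 13 with length and GC offsets and 80 without those 6 kidneys, and DESeq2 called 353. Without single kidneys it was 0 to 15 (15 without KO 1, 9 without KO 2, 3 without control 3). In *Myc* mice 246 became 683 with all 18 kidneys in 1 fit, 954 with the mapping term, 388 with length and GC offsets and 8 without those 6 kidneys, and DESeq2 called 1131. Without single kidneys it was 21 (KO 2) to 877 (control 3) and within 1.5 times of 246 only without KO 1 or control 1. For the difference between cohorts, 11 became 324 with DESeq2, 3 with limma-voom, 133 with the mapping term, 49 with length and GC offsets, 44 without those 6 kidneys and 1 (*Cxcl12* control 3) to 75 (*Myc* KO 5) without single kidneys. Between the controls, 316 became 801 with DESeq2 and 49 (*Cxcl12* control 1) to 611 (*Myc* control 4) without single kidneys, where leaving out any control kidney moved it by over 1.5 times.

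The replicate number as a block, which the main fits did not use, left 0 calls in *Cxcl12* mice, 18 in *Myc* mice and none among the 10 genes. With it *Cdh5* had 0.30 and 0.58, *Kdr* 0.30 and 0.50 and *Flt1* 0.40 and 0.50, and *Notch1* and *Jag1* did not pass in the *Myc* cohort (adjusted p = 0.0735 and 0.0513 by edgeR). *Notch1* and *Jag1* did not pass without the 6 kidneys either (adjusted p = 0.0701 and 0.0806). The *Cxcl12* control group has 3 kidneys, which limits what its comparisons can show.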
